A study of Oryctolagus cuniculus with 8 samples.

Results

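TRIM (tripartite motif) proteins form a large family of ubiquitin ligases, here read in the RNA of cells sorted from the rabbit limbus, the ring where cornea meets conjunctiva. The members are all gene entries whose name occurs once and consists of TRIM and a number, which gave 37 of 20922 entries, 11118 of which carried a usable name. All 37 names matched a RefSeq gene of the rabbit (assembly mOryCun1.1, used for names and neighbours only). The rule used the name alone and no measured value, but it was set with earlier results of these data known. TRIM24, TRIM28 and TRIM32, among other TRIM genes known in mammals, were not analysed here.

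Both groups are labelled as limbal epithelial cells of New Zealand white rabbits, isolated by staining with a Hoechst dye. For the SP libraries, the markers given below qualify this label. Epithelial markers were present there but lower than in NSP libraries, and those of several other cell types were higher. SP (side population) cells expel the dye, and NSP (non-side-population) cells retain it. No other treatment, genotype or age is given in the labels. Each group held 4 libraries of total RNA, sequenced on an Ion Proton, and the comparison asks which transcripts differ between the dye-expelling cells and the rest.

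A typical TRIM protein carries a RING finger, 1 or more B-box zinc fingers and a coiled coil. The RING recruits an E2 enzyme loaded with ubiquitin, and the variable tail (PRY-SPRY, NHL repeats, a bromodomain and others) selects the protein to be marked. Many members are induced by interferon and act in antiviral defence, whereas others work in transcription, on microtubules or in muscle. TRIM29 and TRIM16, the latter also called estrogen-responsive B-box protein, lack a RING and are best known from stratified epithelia and keratinocytes.

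The deposited table held 15553295 to 18931836 exon reads per SP library and 20445565 to 23529101 per NSP library. The SP totals were lower (exact permutation test, two-sided p = 0.0286, the smallest that 70 splits can give). Levels are given as CPM, the reads scaled to a common library size with TMM factors, with libraries listed from replicate 1 to 4, or as RPKM (CPM per kilobase of exon) where genes are compared with each other. Changes are log2 fold changes of SP over NSP ± SE from limma-voom, called at a Benjamini-Hochberg adjusted p of 0.05 over the 10012 genes tested. Nothing in the labels ties the libraries to separate animals. The p-values therefore rest on the spread among these libraries, which may be technical. The 10 markers of corneal and limbal epithelium summed to between 995 and 7009 CPM in SP and between 27116 and 47082 CPM in NSP libraries, and 10 of 10 were called lower (median log2 fold change -3.61). Summed markers of other cell types were higher in every SP library: 1115 to 10933 against 8.96 to 15.5 CPM for 9 endothelial markers, 269 to 824 against 3.02 to 6.85 CPM for 5 T and NK markers, 1015 to 2370 against 40.9 to 99.3 CPM for 7 myeloid markers, and 2139 to 13274 against 149.6 to 307 CPM for 7 melanocyte markers. Markers called higher numbered 9 of 9, 5 of 5, 5 of 7 and 7 of 7 in these lists, 6 of 7 tested for stroma and 4 of 5 for Schwann cells. Of these called markers, CD8B, COL3A1 and LUM had no read in any NSP library. In such bulk RNA, fewer cells of a type and less RNA per cell cannot be told apart, and the part of these other cells in the TRIM results was not tested.

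Of the 37 TRIM genes, 25 held enough reads to be tested, and 11 of them differed between the groups. TRIM5, TRIM27, TRIM35, TRIM25, TRIM38 and TRIM3 were higher in SP cells, 6 of 25 or 24%, against 17.6% of all genes tested. TRIM31, TRIM16, TRIM36, TRIM7 and TRIM45 were lower, 5 of 25 or 20%, against 13.3% of all genes tested. Both directions together took 11 of 25, against 30.8% of all genes tested. Every SP library lay above every NSP library for 5 members (18.6% of all genes tested) and below it for 5 others (14.2% of all genes tested). The median change of the tested members, 0.11 on the log2 scale, equalled that of all genes tested, 0.11. With median-ratio or upper-quartile scaling, which moved the median of all genes by -0.11 and -0.19, the counts became 4 higher and 7 lower. Without SP replicate 3, or without NSP replicate 1, 2 or 4, the number of lower members was 3. In these fits the calls over all genes, in both directions, also fell, from 3088 to between 2266 and 2455.

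**Figure D1:**
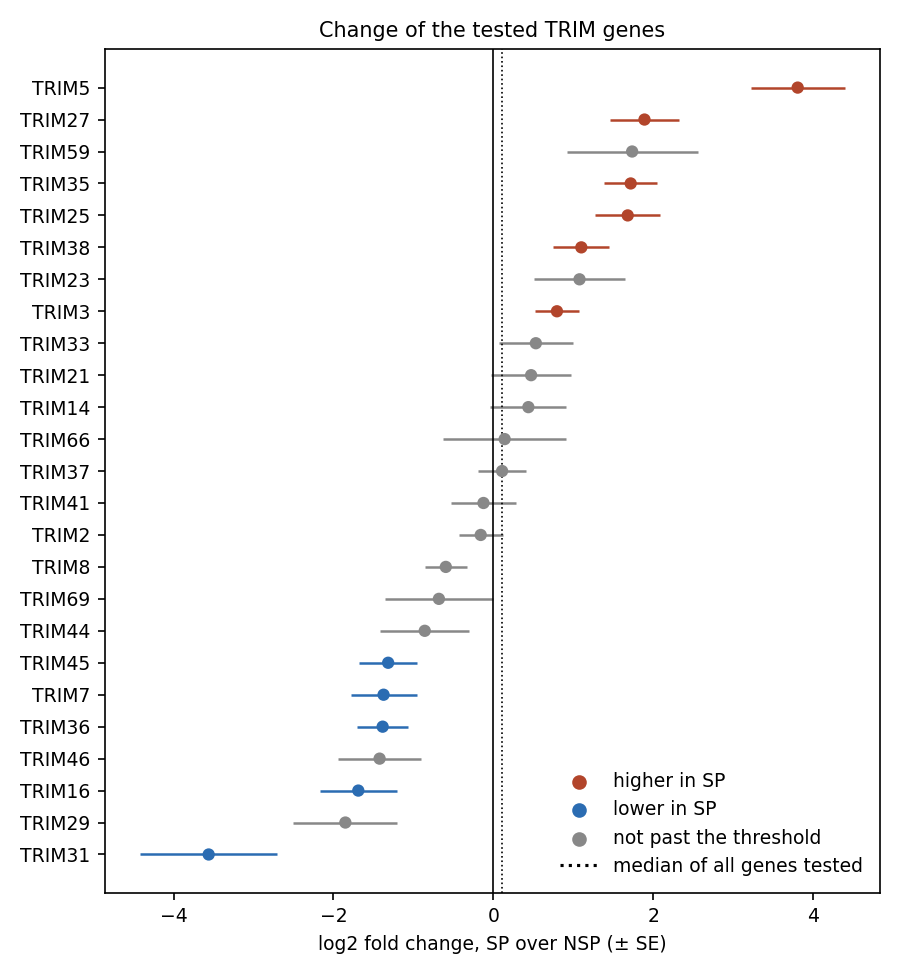
Log2 fold change of SP over NSP (x axis) for the 25 tested TRIM genes (y axis); points are limma-voom estimates, bars are ± 1 SE, colours mark the call, and the dotted line is the median of all genes tested (0.11). Changes run from -3.56 for TRIM31 to 3.81 for TRIM5, with 14 genes in grey that did not pass the threshold.

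TRIM29 dominated the family in the NSP libraries. Per exon length it stood at 389.6 ± 204 RPKM in NSP and 128 ± 85.5 RPKM in SP (SD, n = 4), ahead of TRIM16 at 159 ± 32.2 and 58.5 ± 33.1 RPKM. These 2 genes made up 53.9% to 78.1% of the summed RPKM of the family in the NSP libraries and 14.0% to 54.3% in the SP libraries. The NSP order went on with TRIM8 (51.6 ± 10.7 RPKM), TRIM44 (31.3 ± 31.9), TRIM36 (27.7 ± 4.15) and TRIM25 (20.002 ± 7.96). TRIM44 ranged from 9.91 to 78.8 RPKM and overlapped both of these neighbours. In SP the order after TRIM29 was TRIM25 (67.5 ± 39.6 RPKM), TRIM16, TRIM8 (34.8 ± 9.73), TRIM3 (28.7 ± 7.89) and TRIM35 (28.5 ± 6.72). Neighbours in the SP order overlapped in their ranges, so their sequence is not fixed by 4 libraries. TRIM25 was the leading member in SP replicates 3 and 4, and TRIM29 in the other 6 libraries. The summed RPKM of the family was 286 to 557 in SP and 582 to 1098 in NSP libraries, with no overlap. In every NSP library TRIM29 and TRIM16 made up most of this sum, so the difference does not describe the other members. The sum without these 2 genes was not computed. The share of all exon reads that fell on TRIM genes was 0.142% in SP and 0.235% in NSP.

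**Figure D2:**
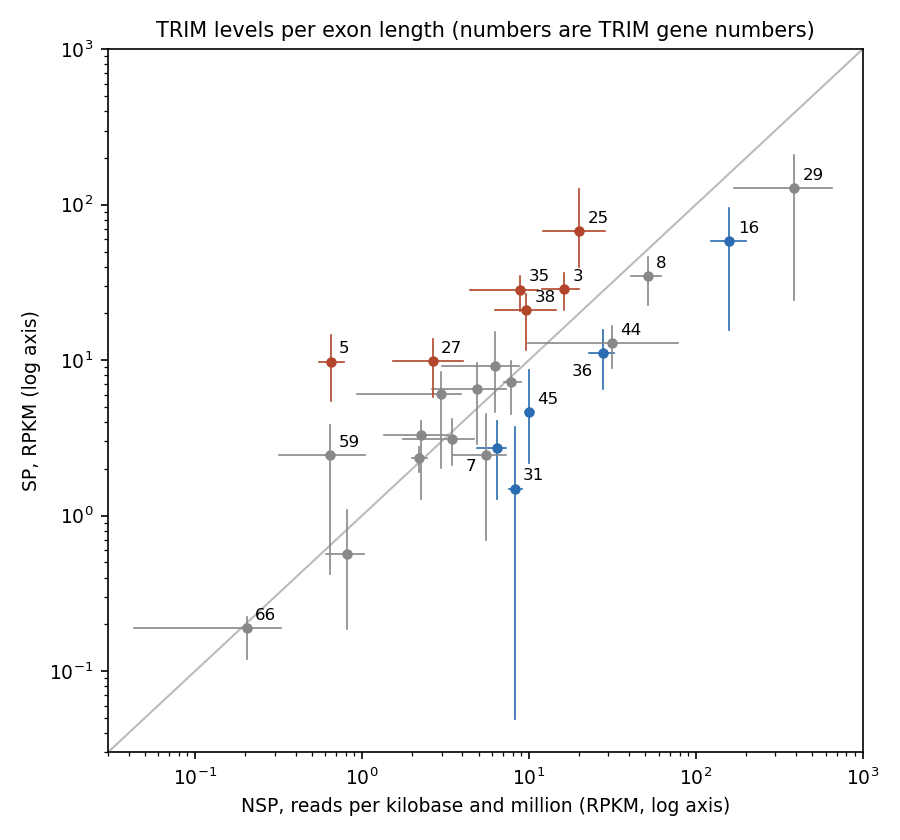
RPKM in NSP (x axis, log) and SP (y axis, log) for the 25 tested TRIM genes; points are means of 4 libraries, lines span the lowest to the highest library, the diagonal marks equal levels, red and blue are genes called higher and lower in SP. TRIM29 and TRIM16 lie at the upper right below the diagonal, TRIM25 lies above it, and TRIM5 is farthest above it.

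Members that interferon induces in other cells were the first group. Of 9 such genes listed, 5 had a usable name (TRIM5, TRIM14, TRIM21, TRIM25, TRIM38), and the others were not examined. Of these 5, 3 rose (17.6% of all genes tested did), none fell and 2 did not pass the threshold. The median log2 fold change of the 5 was 1.10 against 0.11 for all genes tested. The number that rose was 2 in 8 of 14 alternative fits, those in which TRIM38 lost its call. TRIM5 encodes a restriction factor that binds the capsid of incoming retroviruses. It read 10.5, 22.0, 27.7 and 14.4 CPM in the SP libraries and 1.31, 1.48, 1.05 and 1.12 CPM in the NSP libraries. Even the lowest SP library was far above the highest NSP library, and the NSP libraries lay close together. The log2 fold change was 3.81 ± 0.59, or 14.0-fold (limma-voom adjusted p = 0.00115), and it stayed between 3.38 and 4.07 in the 14 alternative fits. TRIM5 was place 23 in the family by mean RPKM in NSP cells and place 11 in SP cells. Its neighbour in the RefSeq order, the closely related TRIM6, had 4 reads in all 8 libraries, none of them in SP. How reads that fit both genes were counted is not given in the sources used here.

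TRIM25 attaches ubiquitin to the viral RNA sensor RIG-I and can also attach ISG15. It read 123, 182, 143.9 and 391.6 CPM in SP and 89.2, 45.1, 37.7 and 77.1 CPM in NSP libraries. SP replicate 4 was the highest by a wide margin, but the other SP libraries also exceeded all NSP libraries. TRIM25 was higher by 1.68 ± 0.40 on the log2 scale, or 3.21-fold (limma-voom adjusted p = 0.0107), and 1.18 without SP replicate 4, the lowest of the 14 alternative fits, all of which kept the call. TRIM38, which restrains Toll-like receptor signalling, read 38.4, 64.6, 86.0 and 87.7 CPM in SP and 32.5, 48.02, 20.7 and 26.3 CPM in NSP libraries. Here the groups overlapped, with SP replicate 1 below NSP replicate 2. Its log2 fold change was 1.10 ± 0.35 (limma-voom adjusted p = 0.036). This call was lost in 8 of 14 alternative fits: with both other scalings and without SP replicate 2, 3 or 4 or NSP replicate 1, 3 or 4, with an adjusted p of up to 0.102.

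TRIM21, the cytosolic receptor for antibody-bound virus, read 4.04, 8.74, 5.76 and 13.2 CPM in SP and 5.65, 2.60, 6.01 and 7.58 CPM in NSP libraries. TRIM14, an adaptor of antiviral signalling at mitochondria that has no RING, read 12.1, 39.7, 34.6 and 22.2 CPM in SP and 12.7, 10.9, 30.4 and 27.7 CPM in NSP libraries. Both pairs of groups overlapped widely. Their log2 fold changes of 0.47 ± 0.50 and 0.44 ± 0.47 did not pass the threshold (limma-voom adjusted p = 0.51 and 0.517). SP replicate 4, which was highest for TRIM25, TRIM38 and TRIM21, had the highest endothelial marker sum (10933 CPM) and the lowest myeloid sum (1015 CPM). SP replicate 3, highest for TRIM5, had the highest sums for T and NK cells (824 CPM), myeloid cells (2370 CPM) and stroma (395 CPM). SP replicate 1 was lowest for TRIM5, TRIM25, TRIM38, TRIM14 and TRIM21. It had the lowest endothelial (1115 CPM), T and NK (269 CPM) and stromal (232 CPM) sums. The same library had the highest melanocyte (13274 CPM), Schwann (1023 CPM) and epithelial (7009 CPM) sums. TRIM14 was highest in SP replicate 2, which had the highest sum for none of the marker lists. The part of these cells in the rise of TRIM5, TRIM25 and TRIM38 was not tested.

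**Figure D3:**
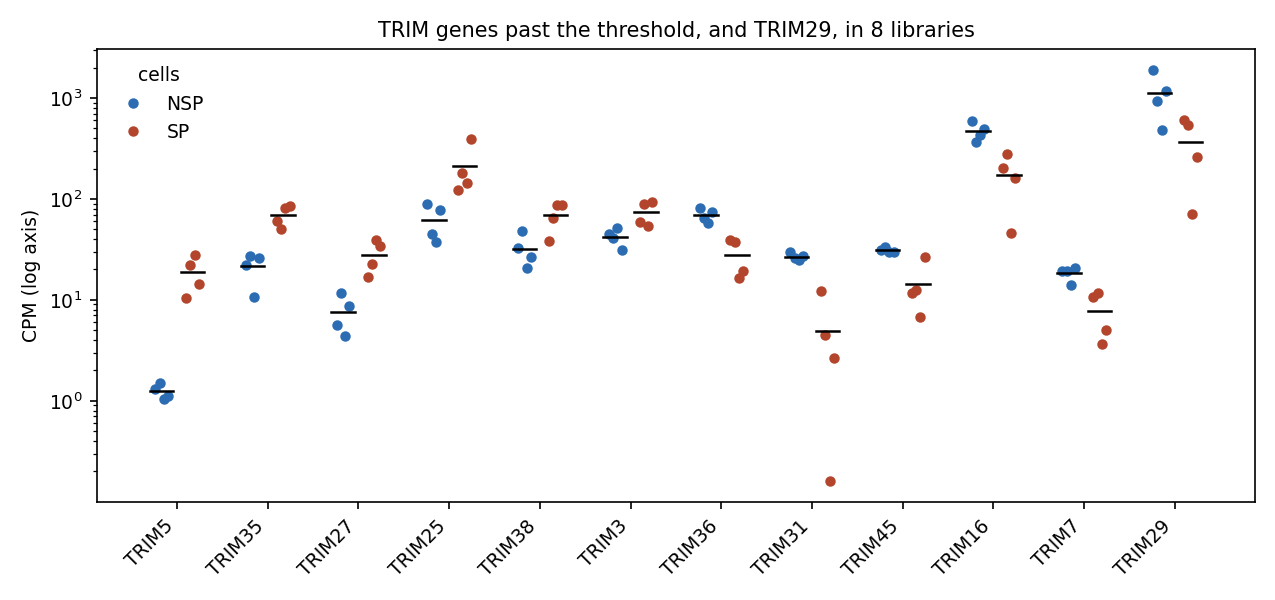
CPM on a log axis for the 11 TRIM genes called higher (left 6) or lower (next 5) in SP and for TRIM29; each dot is 1 of 4 libraries per group, black lines are group means. All SP dots of TRIM5 lie above 10 CPM and all its NSP dots below 2 CPM, whereas the SP dots of TRIM31 spread from 0.160 to 12.2 CPM.

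Further members with a PRY-SPRY tail followed no single direction. The list with this tail held 33 genes, of which 15 had a usable name and 11 were tested. Of these 11, 5 rose (TRIM5, TRIM25, TRIM27, TRIM35, TRIM38) and 2 fell (TRIM7, TRIM16). The median log2 fold change of the 11 was 0.47 against 0.11 for all genes tested. In percent, 45.5% rose and 18.2% fell, against 17.6% and 13.3% of all genes tested. The number that fell was 1 without SP replicate 3 or NSP replicate 2, and 0 without NSP replicate 1 or 4. TRIM36 and TRIM46, described below with the COS box genes, carry this domain as well, and with them 5 of 13 rose and 3 fell. TRIM27, a nuclear ligase first known as RET finger protein, read 16.7, 22.7, 39.2 and 33.9 CPM in SP and 5.65, 11.6, 4.41 and 8.65 CPM in NSP libraries. The groups did not overlap. TRIM27 was higher by 1.89 ± 0.43 on the log2 scale, or 3.71-fold (limma-voom adjusted p = 0.00769). TRIM35, a ligase linked to growth control in blood cells, read 60.8, 49.98, 80.6 and 84.2 CPM in SP and 22.0, 27.3, 10.8 and 25.9 CPM in NSP libraries, again without overlap. Its log2 fold change was 1.72 ± 0.33, or 3.29-fold (limma-voom adjusted p = 0.00361). Both genes kept their calls in all 14 alternative fits.

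TRIM16, which has been tied to keratinocyte differentiation and to the clearance of damaged membranes, fell. It read 201, 279, 46.1 and 160 CPM in SP and 585, 365, 426 and 494 CPM in NSP libraries. SP replicate 3 was the lowest, and the highest SP library stayed below the lowest NSP library. The log2 fold change was -1.69 ± 0.48, or 3.23-fold lower (limma-voom adjusted p = 0.023). Without NSP replicate 1 or 4 it missed the threshold (-1.71 with adjusted p = 0.0539, and -1.66 with adjusted p = 0.058). TRIM7, a partner of the glycogen primer glycogenin, read 10.6, 11.6, 3.63 and 5.07 CPM in SP and 19.5, 19.4, 13.9 and 20.6 CPM in NSP libraries. These groups did not overlap either. TRIM7 fell by 1.37 ± 0.41 on the log2 scale, or 2.59-fold (limma-voom adjusted p = 0.0289). Its call was lost without SP replicate 3 (-1.05, adjusted p = 0.0854) and without NSP replicate 1, 2 or 4 (adjusted p = 0.0532, 0.0677 and 0.0755). TRIM41, which lies next to TRIM7 in the RefSeq order and also carries a PRY-SPRY tail, averaged 12.1 ± 3.71 CPM in the SP libraries and 13.5 ± 5.46 CPM in the NSP libraries and did not pass (adjusted p = 0.848). TRIM69, a ligase found at centrosomes and cilia, was near the detection limit with 5 to 42 reads per library (1.05 ± 0.699 CPM in SP and 1.51 ± 0.344 in NSP, adjusted p = 0.482).

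The RefSeq order also places TRIM15, TRIM10, TRIM40 and TRIM31 side by side. Of these neighbours only TRIM31 was read in quantity. TRIM31, a ligase known from gut epithelium that acts on the antiviral adaptor MAVS, had the deepest fall of the family. It read 12.2, 4.45, 0.160 and 2.64 CPM in SP libraries, where replicate 3 held 3 reads, and 29.6, 25.9, 24.9 and 27.0 CPM in NSP libraries. The NSP values were nearly level while the SP values differed greatly from each other, without touching the NSP range. TRIM31 fell by 3.56 ± 0.86 on the log2 scale, or 11.8-fold (limma-voom adjusted p = 0.0106). It was -2.30 without SP replicate 3 and -4.40 without SP replicate 1, and the call held in all 14 alternative fits. TRIM15 had 25 reads and TRIM10 had 33 reads in all libraries, and TRIM40 had none. The strand setting of the counting is not given, so reads of genes that overlap on opposite strands could not be separated.

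Members with tails of other kinds numbered 8 tested genes, of which TRIM31 and TRIM45 fell and none rose (median log2 fold change -0.73 against 0.11 for all genes tested). The shares were 25% lower and 0% higher, against 13.3% and 17.6% of all genes tested. Over the alternative fits, the number that fell ranged from 1 to 3. The number that rose was 2 without SP replicate 4 and 1 with sample quality weights. TRIM45 carries a filamin-type domain and has been described as a brake on MAP kinase signalling. It read 11.6, 12.5, 6.83 and 26.8 CPM in SP and 30.9, 33.5, 30.1 and 29.6 CPM in NSP libraries. SP replicate 4 came close to the NSP range without entering it. TRIM45 fell by 1.32 ± 0.36 on the log2 scale, or 2.49-fold (limma-voom adjusted p = 0.0196). The adjusted p rose to 0.0585 without SP replicate 3 (-1.01) and to 0.0522 without NSP replicate 2 (-1.28).

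TRIM29, the family's most abundant transcript by mean RPKM in both groups, read 600.2, 539, 70.4 and 263 CPM in SP and 1899.6, 939, 486 and 1172 CPM in NSP libraries. SP replicates 1 and 2 lay above NSP replicate 3, so the groups overlapped. The log2 fold change of -1.85 ± 0.65 did not pass the threshold (limma-voom adjusted p = 0.053). It passed in 7 of 14 alternative fits: with both other scalings, with limma-trend, with sample quality weights and without SP replicate 1 (adjusted p = 0.0274), SP replicate 2 (0.0428) or NSP replicate 3 (0.0425). TRIM8, a regulator of cytokine signalling, read 91.3, 92.9, 58.9 and 121 CPM in SP and 156, 107, 162 and 114 CPM in NSP libraries. Its log2 fold change was -0.59 ± 0.27 (limma-voom adjusted p = 0.117), and only without SP replicate 4 did it pass (-0.90, adjusted p = 0.0237). TRIM44, a B-box protein without a RING, read 94.6, 55.3, 96.2 and 51.7 CPM in SP and 96.6, 115, 454.7 and 57.2 CPM in NSP libraries. NSP replicate 3 alone set its NSP mean apart, and the gene did not pass (log2 fold change -0.86 ± 0.56, adjusted p = 0.271).

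TRIM59, a membrane-anchored member often high in dividing cells, read 7.66, 4.76, 6.30 and 0.833 CPM in SP and 0.633, 2.09, 1.25 and 1.17 CPM in NSP libraries. The first 3 SP libraries exceeded all NSP libraries, and SP replicate 4 fell among them. The gene did not pass (log2 fold change 1.74 ± 0.82, limma-voom adjusted p = 0.135), but did without SP replicate 4 (2.20, adjusted p = 0.0118) and with sample quality weights. TRIM23, which ends in a GTP-binding ARF domain, read 28.8, 24.1, 32.2 and 7.71 CPM in SP and 14.3, 14.9, 3.55 and 12.5 CPM in NSP libraries, with the same library apart. Its log2 fold change of 1.08 ± 0.57 had an adjusted p of 0.18, and 1.34 with adjusted p = 0.0427 without SP replicate 4. TRIM37, a centrosomal and peroxisomal ligase, was nearly level at 11.3 ± 1.69 CPM (SP) and 10.5 ± 0.906 CPM (NSP) (log2 fold change 0.11 ± 0.30, adjusted p = 0.81).

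The subfamily that binds microtubules and sarcomeres through a COS box had 2 tested genes of 7 in the table. TRIM36, a ligase associated with microtubules and the sperm acrosome, read 39.1, 37.5, 16.5 and 19.3 CPM in SP and 81.7, 65.2, 57.7 and 74.0 CPM in NSP libraries. All NSP libraries lay above all SP libraries, whose replicates 1 and 2 were about level and higher than replicates 3 and 4. TRIM36 fell by 1.38 ± 0.32 on the log2 scale, or 2.61-fold (limma-voom adjusted p = 0.00836), and kept this call in all 14 alternative fits. TRIM46, which bundles microtubules at the start of the axon, read 18.6, 12.97, 2.88 and 6.39 CPM in SP and 30.5, 14.5, 23.9 and 22.9 CPM in NSP libraries. SP replicate 1 exceeded NSP replicate 2, and the gene did not pass (log2 fold change -1.42 ± 0.52, limma-voom adjusted p = 0.0624). It passed with both other scalings and without SP replicate 1 (-1.83, adjusted p = 0.0266), and stood at -0.90 without SP replicate 3. In the RefSeq order TRIM46 lies next to MUC1, a membrane mucin of the ocular surface, which did not pass (adjusted p = 0.807). The muscle ligases TRIM54, TRIM55 and TRIM63 and the brain members TRIM9 and TRIM67 held too few reads to test.

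Of the NHL members, which tie ubiquitin transfer to RNA binding and neuronal function, TRIM3 rose and TRIM2 did not pass. TRIM3 read 59.2, 88.5, 53.8 and 93.9 CPM in SP and 44.5, 40.5, 51.0 and 31.0 CPM in NSP libraries. The lowest SP library was just above the highest NSP library. The log2 fold change was 0.80 ± 0.27, or 1.74-fold (limma-voom adjusted p = 0.0474), the weakest call of the family. It was lost in 9 of 14 alternative fits: with both other scalings, without a filter on low counts, without SP replicate 2 or 4 and without any 1 of the 4 NSP libraries, with values down to 0.52 without SP replicate 4 and adjusted p up to 0.146. TRIM2, a ligase for neurofilament light chain, read 57.7, 70.9, 31.9 and 46.0 CPM in SP and 57.2, 50.8, 64.4 and 50.3 CPM in NSP libraries. The SP values enclosed the NSP values (adjusted p = 0.699). TRIM71, the third NHL gene, known from embryonic stem cells, had 2 reads in all libraries.

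Neither tested chromatin member, with its PHD finger and bromodomain, passed the threshold. TRIM33, which targets SMAD4 in TGF-beta signalling, read 19.2, 18.7, 18.6 and 6.04 CPM in SP and 12.3, 15.5, 8.36 and 6.36 CPM in NSP libraries. The first 3 SP libraries were level and above all NSP libraries, and SP replicate 4 was below them all (log2 fold change 0.53 ± 0.46, limma-voom adjusted p = 0.413). TRIM66, a member best known from testis, read 0.701, 1.29, 1.23 and 1.18 CPM in SP and 1.90, 1.44, 0.250 and 1.17 CPM in NSP libraries. These levels correspond to 5 to 42 reads per library, at which a change of moderate size was not detectable (log2 fold change 0.14 ± 0.77, adjusted p = 0.911).

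The 12 members that could not be tested had 0 to 76 reads in all 8 libraries, and 7 of them had fewer than 10. TRIM40, TRIM42 and TRIM67 had no read, which allows up to 0.0422 CPM over the SP and 0.0356 CPM over the NSP libraries (3 reads over each group, counting error only). TRIM6, TRIM54, TRIM55 and TRIM71 had no SP read. For several of the others most reads came from 1 library. SP replicate 1 held 65 of the 71 reads of TRIM9 in SP and 38 of the 49 of TRIM63 in SP. All 14 reads of TRIM54 came from NSP replicate 3, and all 3 of TRIM55 from NSP replicate 1. TRIM77 had 5 reads in all libraries.

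The SP libraries also differed among themselves across members, as the map of members by library shows. SP replicate 3 was the lowest SP library for 5 of the 5 members that fell and also for TRIM2, TRIM8, TRIM29 and TRIM46, which did not pass, and for TRIM3, which rose. It had the lowest epithelial marker sum (995 CPM, against 7009, 2324 and 5078 CPM in SP replicates 1, 2 and 4). Of the 5 members that fell, TRIM31 and TRIM36 were highest in SP replicate 1, which had the highest epithelial sum. TRIM7 and TRIM16 were highest in SP replicate 2, and TRIM45 in SP replicate 4. How often each SP library was highest or lowest over all genes was not computed. SP replicate 4 was the highest SP library for 4 of the 6 members that rose, and SP replicate 3 for the other two, TRIM5 and TRIM27. Among the 14 genes that did not pass, SP replicate 4 was the lowest SP library for 6 (TRIM23, TRIM33, TRIM37, TRIM44, TRIM59, TRIM69). A second view scaled each TRIM gene to the epithelium by dividing its CPM by the summed CPM of the 10 epithelial markers. TRIM16 then stood at 28.7 to 120 CPM per 1000 CPM of markers in SP and 10.3 to 15.7 in NSP libraries, the opposite order of its CPM. TRIM7, TRIM36 and TRIM45 also changed order, and TRIM29 read 51.8 to 232 in SP and 17.9 to 40.3 in NSP libraries. Only TRIM31 among the 5 members that fell did not lie higher in every SP library on this scale (0.161 to 1.91 against 0.630 to 0.918). This ratio is a description without a test, since all 10 markers in its denominator fell and 23 of the 25 tested members lay higher in every SP library on this scale. The share of all genes that did so was not computed. Abundant markers weigh most in the sum: KRT15 averaged 15280 CPM in NSP libraries and fell 85.7-fold. CDH1, of the same list, fell 3.18-fold, near the 3.23-fold of TRIM16. The changed order therefore depends on the markers in the sum, and single markers were not used as denominators.

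**Figure D4:**
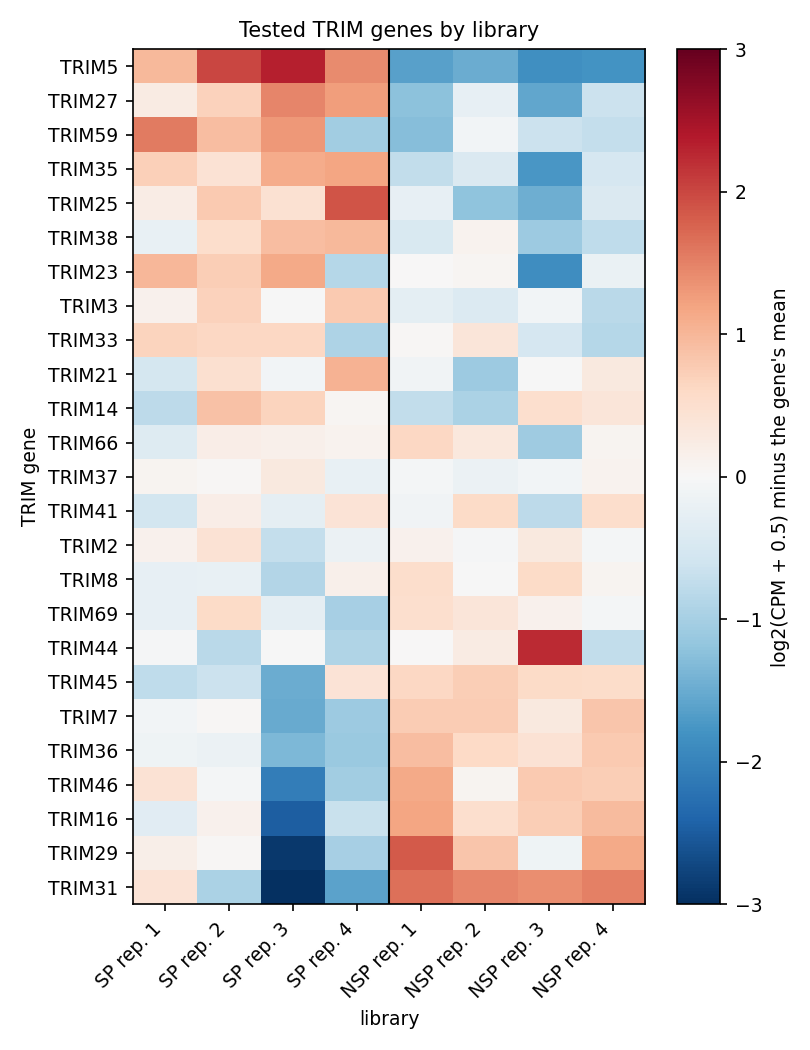
Heat map of log2(CPM + 0.5) minus each gene's mean over 8 libraries, for the 25 tested TRIM genes (rows, ordered by log2 fold change) and the libraries (columns; SP left, NSP right); red is above and blue below the gene's mean, and the scale ends at 3 in either direction. SP replicate 3 is the darkest blue for TRIM16, TRIM29, TRIM31 and TRIM46, and NSP replicate 3 is the darkest red for TRIM44.

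**Figure D5:**
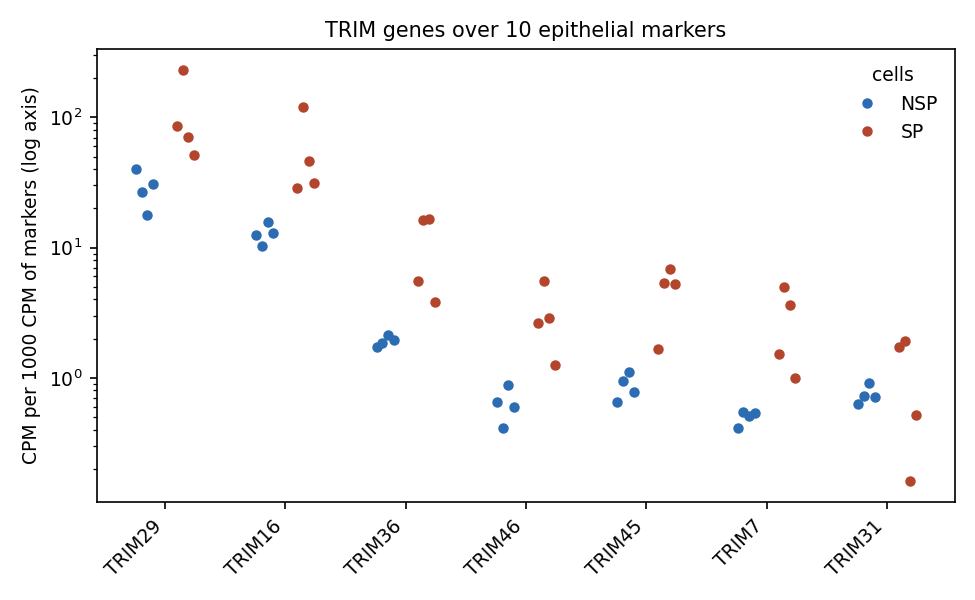
CPM of 7 TRIM genes per 1000 CPM of 10 summed epithelial markers, on a log axis; each dot is 1 of 4 libraries per group. SP dots lie above NSP dots for all genes shown except TRIM31, whose SP dots span 0.161 to 1.91.

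Genes that work with TRIM proteins were described from lists chosen with earlier results of these data known. The E1 and E2 enzymes that charge RING ligases with ubiquitin had 13 tested genes, of which 2 rose and 1 fell (15.4% and 7.69%, against 17.6% and 13.3% of all genes tested), with a median log2 fold change of 0.18 against 0.11. These shares rest on few called genes and are not read as a difference from all genes. UBE2D4 (2.27 ± 0.35, limma-voom adjusted p = 0.00114) and UBE2D2 (1.18 ± 0.33, adjusted p = 0.02), E2 enzymes that many RING ligases use, rose. UBE2E2 fell (-1.26 ± 0.40, adjusted p = 0.0351), although its groups overlapped. UBE2N, the E2 that TRIM5 uses for lysine-linked signalling chains, averaged 99.7 ± 18.8 CPM in SP libraries and 87.4 ± 9.71 CPM in NSP libraries and did not pass (adjusted p = 0.571). Of the ISG15 conjugation genes, whose ligases include TRIM25, 3 of 4 tested rose: HERC6 (2.71 ± 0.51), HERC5 (2.34 ± 0.44) and the E2 enzyme UBE2L6 (1.45 ± 0.48), with limma-voom adjusted p of 0.00307, 0.00322 and 0.0417. Of all genes tested 17.6% rose, and the median of the 4 genes was 1.89 against 0.11. The groups of UBE2L6 overlapped, with 21.9 CPM in the lowest SP and 27.9 CPM in the highest NSP library. UBA7, the E1 of this pathway, had 1.13 ± 0.41 with an adjusted p of 0.0595.

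Around RIG-I, 2 of 12 tested genes rose and none fell, with a median log2 fold change of 0.74 against 0.11 for all genes tested. The share that rose, 16.7%, was near the 17.6% of all genes tested. They were DHX58, a sensor related to RIG-I (1.56 ± 0.52, limma-voom adjusted p = 0.0429), and the interferon signalling factor IRF9 (0.87 ± 0.30, adjusted p = 0.0491). The groups of DHX58 overlapped, with 12.9 CPM in the lowest SP and 13.7 CPM in the highest NSP library. DDX58, which encodes RIG-I, the substrate of TRIM25, did not pass, with 235 ± 80.9 CPM in the SP libraries and 140 ± 30.8 CPM in the NSP libraries (adjusted p = 0.091). The mitochondrial adaptor MAVS, a partner of TRIM14 and TRIM31, did not pass either (1.11 ± 0.48, adjusted p = 0.102). In the list of chromatin partners of TRIM28, the histone methyltransferase SETDB1 rose (1.30 ± 0.27, limma-voom adjusted p = 0.00518) and the remodeller CHD3 fell (-1.22 ± 0.23, adjusted p = 0.00322), the only 2 calls among 8 tested genes (median 0.26), or 12.5% in each direction against 17.6% and 13.3% of all genes tested. Of 6 SMAD and p53 partners of TRIM33 and TRIM24 (median 0.23 against 0.11 for all genes tested), TP63 alone was called. The shares were 16.7% lower and 0% higher, against 13.3% and 17.6% of all genes tested. TP63 is an epithelial marker of the list above, and it fell by 5.43 ± 0.75 on the log2 scale (limma-voom adjusted p = 0.000645). SMAD4, a target of TRIM33, had 0.85 ± 0.34 with an adjusted p of 0.0849. MID2, a TRIM protein under another name, averaged 30.5 ± 4.62 CPM in SP libraries and 26.7 ± 6.09 CPM in NSP libraries and did not pass (adjusted p = 0.561).

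Genes next to the TRIM genes in the RefSeq order were read as well. In 30 pairs (TRIM7 and TRIM41 counted from both sides) the TRIM gene and its protein-coding neighbour were both tested. Both were called, in the same direction, in 2 of these pairs. In all the others the TRIM gene, its neighbour or both were not called. Of all genes tested 30.8% were called in either direction. The share of such pairs among all neighbouring genes was not computed, so the 2 pairs are not read as neighbours changing together. TRIM25 lies next to DGKE, a lipid kinase gene that also rose (1.99 ± 0.29, limma-voom adjusted p = 0.000781), and TRIM35 next to PTK2B, a kinase of calcium signalling, which rose too (1.11 ± 0.24, adjusted p = 0.00609). The neighbour on the other side of TRIM25, COIL, did not pass (0.03 ± 0.27, adjusted p = 0.942). TRIM29, in contrast, did not pass while its neighbour OAF rose (3.93 ± 0.74, limma-voom adjusted p = 0.00307). Whether reads of one neighbour were counted for the other was not tested.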

How the data were processed

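The authors deposited 1 fixed-width text table with 163 fields of 8 characters for each of 20922 gene entries, in 6 stacked blocks; neighbouring fields touch, so it was read by character position. Exon reads per gene and library were taken as deposited, whole numbers without scaling, and the deposited group means were recomputed from them with a largest difference of 0.05. The exon length came from another deposited field, since reads divided by it were proportional to the deposited RPKM-like values to within 8.1e-06. The other 143 per-library fields were not used. The aligner is not given in the sources used here, nor are genome build and annotation. Columns name the group only, so libraries are numbered in column order and cannot be tied to a sample or animal.

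TMM factors (trims of 30% and 5%) were computed here. A gene was tested if 4 libraries reached a CPM of 0.508, which equals 10 reads in a library of median size, and its reads summed to 15 or above. The test was limma-voom (limma 3.58.1, R 4.3.3; count offset 0.5, group only, two-sided). The values are counts, but touching fields kept their unit from being declared as counts, so edgeR and DESeq2 were not used, although the values as read could have been given to them. An earlier TMM version kept genes without reads and gave 4 higher and 7 lower members; it was replaced by the standard form after those counts had been seen.

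The members and lists were chosen with earlier results of these data known. The rule for named genes was to name every TRIM gene, with values per library for members past the threshold and for tested interferon-induced, chromatin and NHL members, and up to 3 genes per other list and direction with the smallest p. UBE2N, UBA7, DDX58, MAVS, SMAD4, MID2, MUC1, DGKE, PTK2B, COIL and OAF were added after their values were seen. Alternatives were 2 other scalings, 2 other filters, limma-trend, sample quality weights and each library left out in turn.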

Additional observations from a re-analysis of the deposited data

Results flagged for a closer look

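In TRIM33, SP replicate 4 (6.04 CPM) lay far from the other SP libraries, which read 18.6 to 19.2 CPM. In TRIM44, NSP replicate 3 (454.7 CPM) lay far from the other NSP libraries, which read 57.2 to 115 CPM. Both gaps exceeded Dixon's critical value for 4 values (0.957 and 0.856 of the range). These are 2 of 50 groups examined, and chance alone marks about 1 in 20.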

How the results depend on the processing

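No alternative reversed the direction of a called member. Of the 11 called members, 6 (TRIM5, TRIM25, TRIM27, TRIM31, TRIM35, TRIM36) kept the call in all 14 alternatives and 5 lost it in 1 or more. Of the 14 others, 5 (TRIM8, TRIM23, TRIM29, TRIM46, TRIM59) gained a call in 1 or more. Leaving out 1 library gave 3 to 7 lower and 4 to 6 higher members. The 3 arose without SP replicate 3 or NSP replicate 1, 2 or 4. Calls over all genes in these fits were 2429, 2455, 2341 and 2266, in that order, against 3088 in the main fit. The cause was not tested. Upper-quartile scaling lowered the share of higher genes among all calls from 56.9% to 46.0%. TRIM2, TRIM37, TRIM41 and TRIM66, none of them called, changed sign in some fits. No paired analysis was possible because the columns carry no replicate numbers. The planned DESeq2 and edgeR fits were not run. Depth limited the 12 members that were not tested and TRIM66 and TRIM69, at 5 to 42 reads per library.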
